A study of Mus musculus with 15 samples.

Results

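Long noncoding RNAs are transcripts that are not translated and act as RNA, as scaffolds of nuclear bodies, as hosts of small RNAs or by binding proteins. Described here are 8 of them in whole mouse brain, Neat1, Malat1, Meg3, Rian, Mirg, Miat, Snhg11 and B230216N24Rik. They were chosen by name from the 43629 genes counted, with earlier results of these data known, and all 8 were among the 15864 genes with enough reads to be tested. RNA-seq had been done on brains of wildtype male C57BL/6J mice fed ad libitum (AL) or every other day (EOD, labelled intermittent fasting), at labelled ages of 3 months (young) or 24 months (old). The young groups held 4 AL and 3 EOD mice and the old groups 4 of each, with 1 library per mouse. EOD mice alternated days with free access to food and days without food, for a short time in the young groups and for most of life in the old groups. The comparisons address whether age, diet or their combination altered the level of each RNA. In whole brain RNA, fewer cells of a type and less RNA per cell cannot be told apart.

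Neat1 builds paraspeckles, nuclear bodies that hold RNA-binding proteins, and Malat1 lies in nuclear speckles, where splicing factors are stored. Meg3, Rian and Mirg are transcribed in the same direction from the maternal copy of the imprinted Dlk1-Dio3 domain, and Rian and Mirg carry many small nucleolar RNAs and microRNAs. Miat is a nuclear RNA of neurons that binds splicing factors, and Snhg11 is a host of small nucleolar RNAs that neurons express strongly. B230216N24Rik is known only by its clone name.

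The counts per mouse summed to between 5198748 and 13610729, and the 8 RNAs together took 0.137% to 0.209% of them. The library of the third young AL mouse stood apart from the other 14. It had the highest total count and the fewest genes with a count (17280, against 19054 to 20880), and limma gave it a sample weight of 0.169, against 0.772 to 1.82 for the others. Its markers of choroid plexus and ependyma summed to 336.7 CPM (counts scaled to the TMM-adjusted library total), against 771 to 818 in the other young AL mice. Age differences of the 8 RNAs in AL mice are therefore also given without it, and list medians where leaving it out moved them by over 1.5 times. Among brain cell markers, 12 of 12 neuronal genes passed the filter on low counts, and no marker of the 9 cell type lists was at 0 in every mouse.

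All positions are on mouse genome build GRCm38. Neat1 (ENSMUSG00000092274) lies on chr19:5824708-5845478 and Malat1 (ENSMUSG00000092341) on chr19:5795690-5802672, both on the minus strand as a single exon, of 20771 and 6983 bases. Meg3 (ENSMUSG00000021268) spans chr12:109541001-109571726, Rian (ENSMUSG00000097451) chr12:109603940-109661716 and Mirg (ENSMUSG00000097391) chr12:109729764-109749460, all on the plus strand. Miat (ENSMUSG00000097767) is on chr5:112213228-112229395 (minus strand), Snhg11 (ENSMUSG00000044349) on chr2:158375638-158386145 (plus strand) and B230216N24Rik (ENSMUSG00000089706) on chr1:98031116-98057680 (minus strand). GENCODE M21 types Snhg11 as protein coding, whereas RefSeq types all 8 as long noncoding. Between 1.23% and 7.74% of each RNA's exon bases are shared with other annotated genes on the same strand, and reads falling there would not have been assigned to either gene.

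Sequences of Malat1, Neat1 and Miat are shown for the features these transcripts are known for. The ends of Malat1 and of the long form of Neat1 are known to fold U-rich stretches onto an A-rich stretch, in place of a poly(A) tail. In their last 500 bases, the annotated transcripts spanning Malat1 and Neat1 had as longest common run the 16 bases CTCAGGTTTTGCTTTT, followed in both by AAAAAGCAAAA. Both are given 5′ to 3′ with these runs in capitals (chr19:5795977-5796073 and chr19:5824708-5824806, minus strand). The 18935 transcripts of GENCODE M21 long noncoding genes and of the 8 RNAs were searched on the transcribed strand. No other held the first run followed by the second within 150 bases, so 0.0106% did. Both runs were cut from Malat1 and Neat1 as exact matches, so few other hits were possible. The share is therefore no evidence that the runs are particular to them. In Neat1 the A-rich run ends at the last annotated base, and in Malat1 292 bases follow it.
Malat1: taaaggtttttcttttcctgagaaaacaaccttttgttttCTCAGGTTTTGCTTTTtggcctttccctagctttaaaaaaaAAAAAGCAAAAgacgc
Neat1: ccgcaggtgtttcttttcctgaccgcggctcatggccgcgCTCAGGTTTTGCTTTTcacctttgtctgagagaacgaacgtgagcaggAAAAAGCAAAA

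Miat is known for TACTAAC repeats, which resemble the intron branch point and bind splicing factor 1. The Miat transcript of 8758 bases held 6 copies, and 3 of them fall within the stretch below (chr5:112216754-112216810, minus strand, copies in capitals). Of the 18935 transcripts, 3.78% held at least 1 copy on the transcribed strand and 3 transcripts held 6 or more. Of the 33 transcripts longer than 8000 bases, 2 held 6 or more.
Miat: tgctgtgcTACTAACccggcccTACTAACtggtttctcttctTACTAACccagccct

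Meg3, Rian and Mirg lie one after the other on chromosome 12, and RefSeq (GRCm38.p6) places 35 mature microRNAs inside them on the same strand, 3 in Meg3, 6 in Rian and 26 in Mirg. GENCODE further annotates 13 small nucleolar RNA genes inside Rian. The microRNAs had 34 different seeds (bases 2 to 8, in capitals), and the sole pair with a common seed was miR-453 and miR-496a-5p of Mirg. These are shown with miR-134-5p, known for a role in dendritic spines, also in Mirg, miR-370-3p in Rian and miR-770-5p in Meg3. The libraries counted long RNA, so the values below are those of the host transcripts and say nothing of the mature microRNAs.
miR-453: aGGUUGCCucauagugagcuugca
miR-496a-5p: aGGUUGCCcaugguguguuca
miR-134-5p: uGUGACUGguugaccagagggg
miR-370-3p: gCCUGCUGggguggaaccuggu
miR-770-5p: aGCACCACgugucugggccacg

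**Figure D1:**
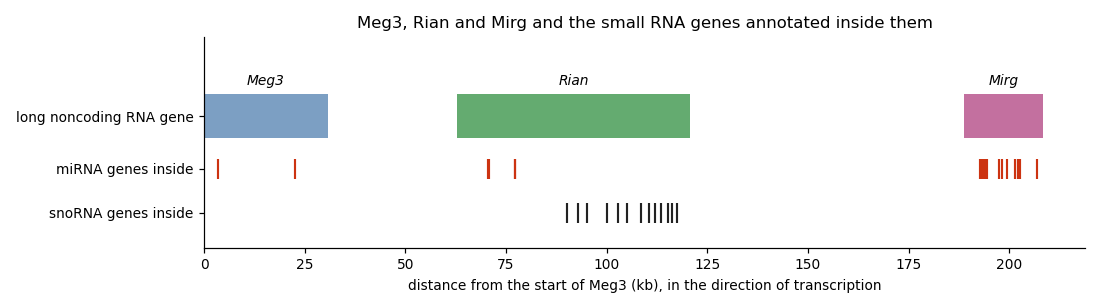
Positions of Meg3, Rian and Mirg (bars) and of the microRNA and small nucleolar RNA genes inside them (ticks), in kb from the start of Meg3. The microRNA genes crowd in Mirg, and the 13 small nucleolar RNA genes lie in Rian.

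Levels can be compared between RNAs only per length, here as RPKM (read counts scaled to exon length and depth, from TMM-scaled totals and the files' exon lengths). Snhg11 had the highest mean, 46.7 ± 7.01 RPKM (SD, n = 15 mice), followed by Meg3 at 32.3 ± 5.36, Malat1 at 29.8 ± 9.29 and Rian at 22.2 ± 2.05. Miat was at 8.74 ± 1.4, Neat1 at 2.96 ± 0.893, B230216N24Rik at 1.21 ± 0.683 and Mirg at 0.737 ± 0.160 RPKM. The ranges over mice did not overlap between Rian and Miat (18.4 to 25.7 against 6.63 to 10.9 RPKM) or between Miat and Neat1 (1.16 to 4.29 RPKM), and they overlapped between all other neighbours in this order. Meg3 was above Malat1 in 10 of 15 mice, so their order varied between brains. CPM is not per length, so ranks by it favour long RNAs and are ranks of reads only. By CPM, Meg3, Snhg11 and Rian ranked 5, 6 and 7 among 6854 genes, while Mirg ranked 476. These genes are the GENCODE long noncoding genes in the files and Snhg11. The division by length takes all of Neat1's 20771 bases, so a shorter Neat1 form would be understated by it. Malat1 and the long form of Neat1 lack a poly(A) tail and the RNA selection of the libraries is not given in the sources used here, so a selection of poly(A) RNA could lower their levels, their ranks and their ratio to other RNAs, which was not tested. The 8 RNAs took 6.50% to 10.9% of the CPM of the 6854 genes in each mouse, which is likewise a share of reads and not per length.

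**Figure D2:**
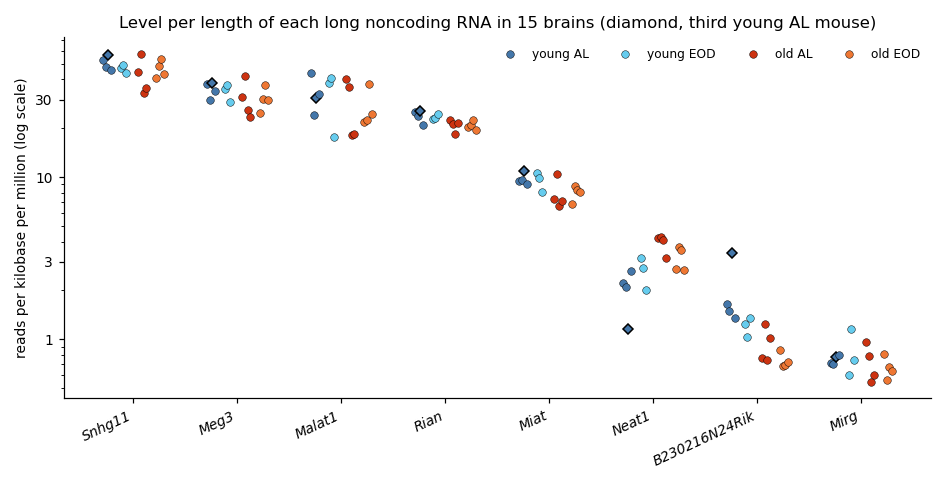
Level of each RNA in RPKM (log axis) in each of the 15 mice, coloured by group, with RNAs in order of their mean. Snhg11, Meg3, Malat1 and Rian overlap at the top, and Miat is separate from the RNAs on either side of it.

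Neat1, the paraspeckle scaffold, was the one RNA of the 8 that rose with age. In AL mice it stood at 46.3, 43.7, 24.1 and 54.4 CPM in the young and at 86.8, 89.1, 84.5 and 65.8 CPM in the old. In EOD mice it stood at 65.9, 56.7 and 42.0 CPM in the young and at 56.0, 76.4, 74.0 and 55.4 CPM in the old. Every old AL mouse was above every young AL mouse, whereas the young and old EOD mice overlapped. The lowest value was that of the third young AL mouse.

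In AL mice the Neat1 difference was 0.95 on the log2 scale (SE 0.185), with an adjusted p of 0.0101 over all genes tested (quasi-likelihood test of edgeR, Benjamini-Hochberg adjusted p, called below 0.1). Without the third young AL mouse it was 0.76 (SE 0.147, adjusted p = 0.0104 by edgeR). Averaged over both diets the difference was 0.60 (SE 0.137, adjusted p = 0.0247 by edgeR) and 0.50 without that mouse (adjusted p = 0.0115 by edgeR). Within sequencing lanes, read from the file headers, the difference in AL mice was 0.94, 1.84 and 0.27 in lanes 1, 2 and 3, with the third young AL mouse the only young AL mouse of lane 2. In EOD mice the difference was 0.25, with a 95% interval of -0.17 to 0.67 and an adjusted p of 0.987 by edgeR, and within lanes it was -0.24 and 0.64. The difference between these age effects (interaction) was -0.70 (95% interval -1.27 to -0.14), with an unadjusted p of 0.0168 and an adjusted p near 1 (0.9998 by edgeR). Without the third young AL mouse it was -0.51 (unadjusted p = 0.0216, adjusted p = 0.9996 by edgeR), so a dependence of Neat1's rise on diet was not called.

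Some markers of several cell types moved in the same comparisons as Neat1, and their part in its rise was not tested. Of 10 microglial markers, 4 rose in old AL and 4 in old EOD mice, and their summed level was 401 to 438 CPM in young AL, 393 to 419.5 CPM in young EOD, 528 to 616 CPM in old AL and 493 to 576 CPM in old EOD mice. Gfap and S100b rose among 10 astrocyte markers in AL mice, Gfap by 1.22 on the log2 scale. The median of the astrocyte list was 0.08 in AL mice (0.04 without the third young AL mouse), with 3 of 10 below 0. In EOD mice it was 0.01, with 5 of 10 below 0. The astrocyte sums overlapped, at 5328 to 5899 CPM in young and 5731 to 6275 CPM in old AL mice. Ermn and Mbp rose among 10 oligodendrocyte markers in AL mice, by 0.58 and 0.39, and their list summed to 6109 to 7291 CPM in young and 7324 to 8055 CPM in old AL mice. In EOD mice no oligodendrocyte marker was called, and 7 of 10 were below 0, with a median of -0.06. Without the third young AL mouse, 5 microglial markers and 1 oligodendrocyte marker were called in AL mice.

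**Figure D3:**
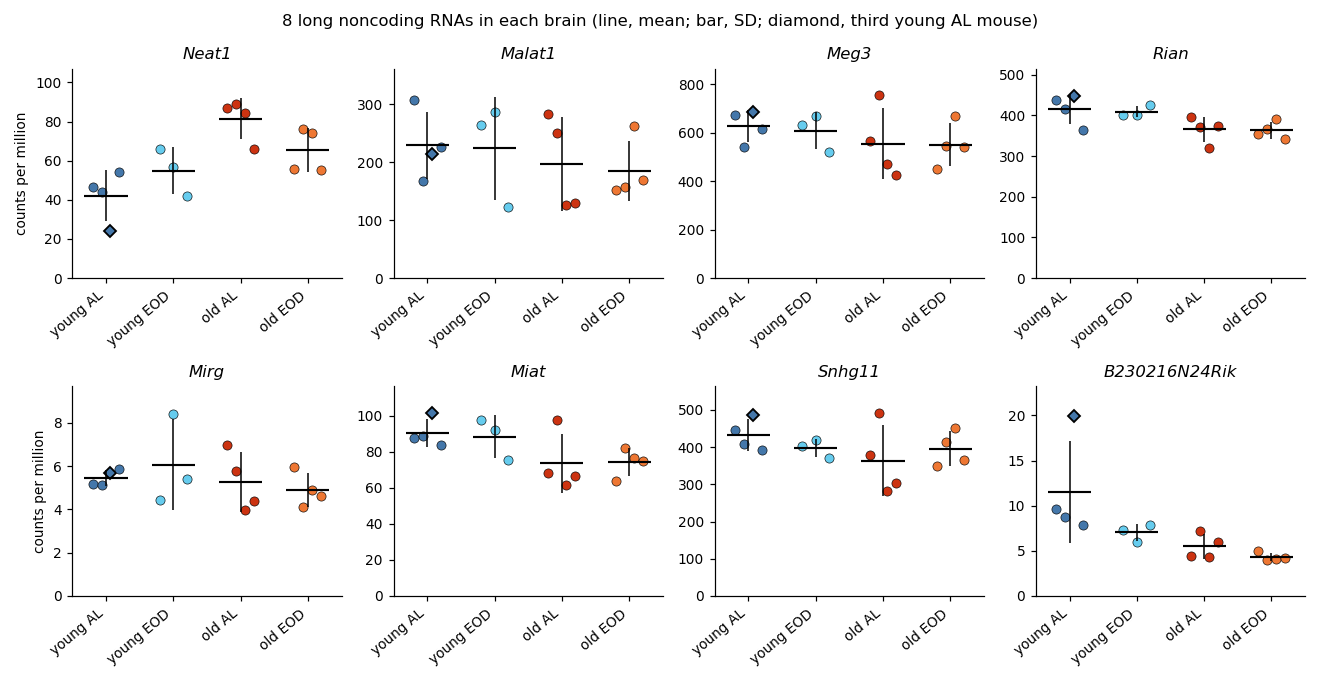
Level of each RNA in CPM in each mouse by group, with the mean (line) and SD (bar); the diamond is the third young AL mouse. Neat1 separates old from young AL mice, Malat1 spreads widely within every group, and B230216N24Rik is far higher in the third young AL mouse than elsewhere.

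Frmd8, a protein-coding gene 4.22 kb from Neat1 on the same strand, was its nearest tested neighbour on that side and also rose. It averaged 22.1 ± 2.20 CPM in young AL (SD, n = 4), 17.3 ± 1.65 in young EOD (n = 3), 28.7 ± 3.11 in old AL (n = 4) and 27.4 ± 3.35 CPM in old EOD mice (n = 4). The change was 0.51 averaged over diets (adjusted p = 0.00165 by edgeR) and 0.66 in EOD mice (adjusted p = 0.0275 by edgeR), while 0.36 in AL mice was not called (adjusted p = 0.220 by edgeR). Neat1 was thus called in AL mice and Frmd8 in EOD mice, and neither had an age by diet interaction that was called. The neighbour on the other side is Malat1, at 22.0 kb.

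Malat1 differed more between mice of the same group than with age or diet. In AL mice it stood at 307, 168, 214 and 227 CPM in the young and at 283, 250.4, 127 and 129 CPM in the old. In EOD mice it stood at 264, 286 and 123 CPM in the young and at 152, 158, 262 and 169.9 CPM in the old. All groups overlapped. The pooled SD within groups was 0.51 on the log2 scale, the largest of the 8, beside a median of 0.12 over the 6201 genes with a mean log2 CPM over 5.

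Malat1's age difference was -0.21 in AL mice (95% interval -0.76 to 0.33) and -0.27 in EOD mice (-0.86 to 0.31), with adjusted p of 0.853 and 0.995 by edgeR. These intervals leave room for changes in either direction, so a fall or rise of moderate size was not detectable in these groups. A pair of genes annotated on the opposite strand within Malat1, ENSMUSG00000092267 and Gm37376, had mean levels of 16.9 and 16.3 CPM and age changes averaged over diets of -0.18 and -0.07 (adjusted p = 0.823 and 0.933 by edgeR). Of 23 nuclear speckle proteins tested, none was called in any age comparison, with medians of -0.02 in AL (-0.05 without the third young AL mouse) and 0.005 in EOD mice. Srsf5, a splicing factor with the smallest p of this list, averaged 106.9 CPM in young AL, 109.5 in young EOD, 93.5 in old AL and 91.1 CPM in old EOD mice. The ratio of Malat1 to Neat1 per length was 17.5 ± 7.02 in young AL (SD, n = 4; 14.5 ± 4.54 without the third mouse, n = 3), 11.9 ± 3.18 in young EOD (n = 3), 7.08 ± 2.38 in old AL (n = 4) and 8.47 ± 1.85 in old EOD mice (n = 4).

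Meg3, a maternally expressed RNA with growth-restraining functions, did not pass the test in any comparison. In AL mice it stood at 674, 540.3, 685 and 616 CPM in the young and at 567, 755, 469.5 and 424 CPM in the old. In EOD mice it stood at 632, 669 and 522 CPM in the young and at 450.2, 545, 670.0 and 539 CPM in the old. The groups overlapped, and the second old AL mouse had the highest value of all. The age difference was -0.18 in AL mice (95% interval -0.48 to 0.11) and -0.14 in EOD mice (-0.46 to 0.17).

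Rian, the host of small nucleolar RNAs, varied least within groups, with a pooled SD of 0.11 on the log2 scale. The AL mice stood at 437, 416, 448.5 and 365 CPM in the young and at 395, 372, 321 and 374.5 CPM in the old. The EOD mice stood at 400.6, 402 and 426 CPM in the young and at 354, 366, 392 and 341 CPM in the old. The old EOD mice were all below the young EOD mice, while the AL groups overlapped. The share of all genes that separate in this way is not given, so the separation is a description only. The difference in EOD mice was -0.17 (95% interval -0.34 to -0.01) and was not called (adjusted p = 0.862 by edgeR). Rian's difference with age averaged over diets was -0.18 (95% interval -0.29 to -0.07), with an adjusted p of 0.136 by edgeR and of 0.0751 by DESeq2, so the call depends on the test. Without the third young AL mouse it was -0.16 (adjusted p = 0.201 by edgeR). Without the fourth young AL mouse, the lowest young value, it was -0.21 (adjusted p = 0.0425 by edgeR). Rian was called for age averaged over diets in 3 of 25 fits.

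Mirg, the microRNA host, was the least abundant of the 3 and rested on 21 to 75 reads per mouse. Its level was 5.12 to 5.85 CPM in young AL, 4.41 to 8.41 in young EOD, 3.97 to 6.95 in old AL and 4.09 to 5.94 CPM in old EOD mice. All groups overlapped. The age difference was -0.05 in AL mice (95% interval -0.51 to 0.41) and -0.28 in EOD mice (-0.78 to 0.23). Per length, Rian was at 0.700 ± 0.105 of Meg3's level and Mirg at 0.0232 ± 0.00502 of it (SD, n = 15 each), and group means of the ratio of Rian to Meg3 ran from 0.690 to 0.714. Those of the ratio of Mirg to Meg3 ran from 0.0217 to 0.0247.

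Protein-coding genes of the Dlk1-Dio3 domain and its flanks were not called either. Of 9 tested, the smallest p belonged to Dlk1, a paternally expressed membrane protein 77.7 kb from Meg3. It averaged 28.1 ± 5.93 CPM in young AL (SD, n = 4), 32.4 ± 8.80 in young EOD (n = 3), 39.6 ± 6.78 in old AL (n = 4) and 35.2 ± 4.53 CPM in old EOD mice (n = 4), and its change averaged over diets was 0.31 (adjusted p = 0.281 by edgeR). Of 29 other imprinted genes tested, none was called for age, with a median change of 0.02 averaged over diets (0.007 without the third young AL mouse), beside -0.005 over all genes tested. Snrpn, the one with the highest level per length, changed by -0.08 in AL mice (adjusted p = 0.753 by edgeR).

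Miat, the splicing factor-binding RNA of neurons, had lower means in old mice, a difference that did not pass the test. The AL mice stood at 87.5, 88.9, 102 and 83.8 CPM in the young and at 68.3, 97.6, 61.6 and 66.6 CPM in the old. The EOD mice stood at 97.8, 92.2 and 75.2 CPM in the young and at 63.7, 82.1, 76.8 and 75.0 CPM in the old. The second old AL mouse lay among the young AL mice, and the other 3 old AL mice lay below all of them. Averaged over diets the difference was -0.28 (95% interval -0.46 to -0.09, adjusted p = 0.169 by edgeR). With all mice the difference in AL mice was -0.30 (adjusted p = 0.411 by edgeR). Without the second old AL mouse it was -0.46 (adjusted p = 0.0450 by edgeR), the 1 fit of 25 that called Miat in AL mice. Fits that left out 1 mouse called 102 to 221 of all genes in AL mice. The limma sample weight of that mouse was 1.55, so its library was not marked as poor.

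None of 4 splicing factors known to bind Miat was called for age. Celf3, an RNA-binding protein of neurons, averaged 72.1 CPM in young AL, 64.0 in young EOD, 60.7 in old AL and 57.9 CPM in old EOD mice, with a change of -0.25 in AL mice (adjusted p = 0.405 by edgeR). Qk, which glia express strongly and which had the highest level per length of the list, changed by 0.10 in AL mice (adjusted p = 0.759 by edgeR). Of 12 neuronal markers none was called, with a median change of -0.09 in AL (-0.04 without the third young AL mouse) and -0.002 in EOD mice, beside -0.01 and -0.0004 over all genes tested.

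Snhg11, the snoRNA host with the highest level per length, stood at 447, 408, 486 and 392 CPM in young AL and at 379, 492, 281.5 and 302.5 CPM in old AL mice. In EOD mice it stood at 403, 419 and 372 CPM in the young and at 349, 415, 453 and 366 CPM in the old. The groups overlapped in both diets, in AL mice through the second old AL mouse, which was above every young AL mouse. The age difference was -0.25 in AL mice (95% interval -0.52 to 0.01, adjusted p = 0.541 by edgeR) and -0.01 in EOD mice (-0.29 to 0.28). Without the second old AL mouse the difference in AL mice was -0.43 (adjusted p = 0.0753 by edgeR), which was called. Only 2 of 25 fits called Snhg11 in AL mice. The mouse left out here is the one that went against the fall, and its limma sample weight of 1.55 did not mark its library as poor.

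B230216N24Rik had been known to be lower in old AL mice when it was chosen, so its age difference in AL mice and the average over diets are a description with no test. The AL mice stood at 9.63, 8.78, 19.9 and 7.86 CPM in the young and at 4.47, 7.21, 4.35 and 5.96 CPM in the old. The EOD mice stood at 7.28, 6.01 and 7.88 CPM in the young and at 5.02, 3.98, 4.05 and 4.23 CPM in the old. In AL mice the old were below the young with no overlap, which adds nothing to the choice made there. The EOD groups did not overlap either. The share of all genes that separate in this way is not given, so the separation is a description only. The third young AL mouse was 2.28 times the mean of the other young AL mice, the same library in which Neat1 was at 0.500 of theirs.

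The difference of B230216N24Rik in AL mice was -1.06 on the log2 scale (SE 0.254) with the third young AL mouse and -0.64 (SE 0.183) without it. Its values in EOD mice may also have been known when it was chosen, so they are not taken as an independent test. In EOD mice the difference was -0.71 (95% interval -1.31 to -0.11), with an unadjusted p of 0.0225 and an adjusted p of 0.782 by edgeR. The third young AL mouse enters this comparison only through the shared estimate of spread, the scaling and the set of genes tested. Leaving it out gave -0.71 (SE 0.193, adjusted p = 0.188 by edgeR), so the fall in EOD mice was not called either way. Its level rested on 23 to 264 reads per mouse.

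The transcript lies on the same strand as Pam, a peptide-amidating enzyme whose gene overlaps it, and 188 exon bases are shared, 3.21% of its own. Pam was much more abundant, at 263.7 to 338.6 CPM in young AL mice, with its highest value of all mice in the third young AL mouse as well. Pam's age difference was -0.09 in AL mice (adjusted p = 0.763 by edgeR). Markers of immature neurons moved in the same direction as B230216N24Rik. Of 12, Sox4 and Igfbpl1, a transcription factor and a secreted protein of newborn neurons, fell in AL mice, with log2 changes of -0.80 and -1.81 (adjusted p = 0.0147 and 0.0340 by edgeR), with a median over the list of -0.37 in AL and -0.11 in EOD mice. Their summed level was 328 to 392 CPM in young AL, 292 to 374 in young EOD, 267 to 312 in old AL and 273 to 332 CPM in old EOD mice, and the highest sum was that of the third young AL mouse. Their part in the difference was not tested.

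**Figure D4:**
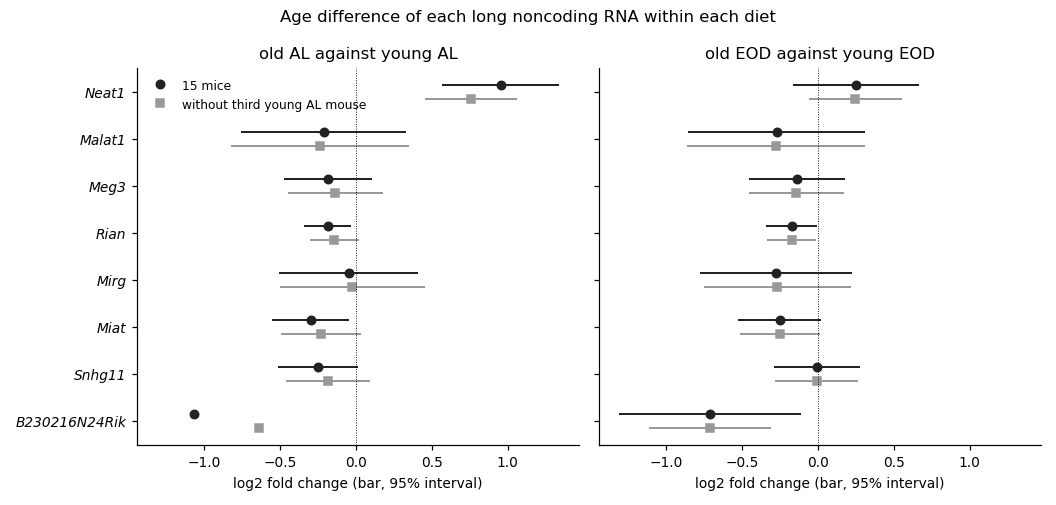
Log2 fold change with age within AL mice (left) and EOD mice (right) for each RNA, with all 15 mice (circles) or without the third young AL mouse (squares) and 95% intervals from edgeR; B230216N24Rik has no interval in AL mice, where it was chosen. In AL mice both intervals of Neat1 lie above 0.

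B230216N24Rik was chosen through the AL mice, so the age counts that use them are given for the other 7 RNAs. In AL mice 1 of these 7 was called for age, Neat1, with 15 and with 14 mice, where 1.09% and 1.02% of all genes tested were called. Without that mouse the differences in AL mice were -0.24 for Malat1, -0.13 for Meg3, -0.14 for Rian, -0.02 for Mirg, -0.23 for Miat and -0.19 for Snhg11, none of them called. Averaged over diets Neat1 was again the one called of the 7, with 15 and with 14 mice, where 2.3% and 2.61% of all genes were. In EOD mice 0 of 8 were called by edgeR, beside 0.29% of 15864 genes, with 911 of them at an unadjusted p under 0.05. Also 0 of 8 were called by DESeq2 (0.274% of 26260 genes), limma (0.788% of 15864) or edgeR without the third young AL mouse (0.459% of 15687). DESeq2 was run without the filter on low counts used for the others. Its own default filter can leave genes without an adjusted p, and such genes remain among the 26260, which are those given a p. Its share is therefore not directly comparable with the others. The difference was below 0 for 6 of the 7 RNAs in both diets, with medians of -0.19 in AL and -0.17 in EOD mice. Over all genes the medians were -0.01 and -0.0004, and 52.4% and 50.1% of genes were below 0. Snhg11 in EOD mice was near 0 (-0.01). Several of these RNAs varied together from mouse to mouse, so they are not separate observations. GENCODE long noncoding genes as a class, looked at after the results were seen, also had medians below 0, -0.04 in AL and -0.06 in EOD mice. The class had 1456 members tested. Of these, 6 rose and 2 fell in AL mice (0.549%), the chosen B230216N24Rik among the falls, and 0 were called in EOD mice. Without the third young AL mouse 7 rose and 0 fell in AL mice, and 1 rose in EOD mice, A530053G22Rik (adjusted p = 0.0571 by edgeR), named after its values were seen. Of 28 other well-known long noncoding RNAs tested, none was called for age with 15 mice. Of these 28, 19 were below 0 in AL and 16 in EOD mice, with medians of -0.08 and -0.04. Gas5, a growth arrest RNA with the highest level per length among them, changed by 0.16 averaged over diets (adjusted p = 0.187 by edgeR) and was called without the third young AL mouse (0.19, adjusted p = 0.0701 by edgeR).

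No diet difference of the 8 RNAs passed the test. By edgeR 0 of 8 and 0% of all genes were called for diet, whether tested in the young, in the old or as the average of both ages, and for the interaction of age and diet. The genes at an unadjusted p under 0.05 numbered 657, 409, 715 and 362 of 15864, in this order. DESeq2 and limma also called 0 of 8 in each. Beside these, at most 0.00381% of the 26260 genes given a p by DESeq2 and 0.0126% of 15864 genes by limma were called. B230216N24Rik differed by -0.71 in young mice, and by -0.29 without the third young AL mouse, a description since the same young AL values entered its choice. Neat1 differed by 0.39 in young mice (95% interval -0.03 to 0.81) and by -0.32 in old mice (-0.69 to 0.06), EOD against AL, and by 0.19 and -0.32 without the third young AL mouse. Rian had the narrowest intervals, -0.19 to 0.14 in young and -0.17 to 0.14 in old mice.

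Several RNAs varied together from mouse to mouse. Over the 14 mice without the third young AL mouse, Meg3 and Snhg11 had Pearson's r = 0.89 and Spearman's rho = 0.91 of log2 CPM (permutation p = 2e-05 for each, adjusted over 28 pairs 0.00056). For Malat1 and Meg3 r was 0.85 and rho 0.83 (permutation p = 0.00023 and 0.00049, adjusted 0.0022 and 0.0069). For Miat with Snhg11 r was 0.80 and rho 0.78 (permutation p = 0.00024 and 0.0013, adjusted 0.0022 and 0.012), and for Meg3 with Miat 0.81 and 0.77 (permutation p = 0.00057 and 0.0017, adjusted 0.004 and 0.012). Without the 2 mice farthest from the median of the first-named RNA, r was 0.81, 0.86, 0.71 and 0.74 for these pairs in the same order. Taken as deviations from group means, r was 0.91, 0.84, 0.85 and 0.80, so the covariation was also present among mice of the same group. The adjusted permutation p was also below 0.1 by both measures for Malat1 with Snhg11 (r = 0.72) and with Miat (0.60). The same held for B230216N24Rik with Rian (0.64) and, inversely, with Neat1 (-0.62), a description since age in AL mice entered its choice. As deviations from group means, r was 0.73, 0.58, 0.32 and -0.37 for these pairs.

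Meg3 and Rian, neighbours in the same domain, varied together less, with r = 0.42 and rho = 0.39 (permutation p = 0.14 and 0.17). The pairs share libraries and their scaling, and r was not compared with that of other pairs of genes. By the highest r among all tested genes, which allows no p, the genes most like Malat1 over 14 mice were Nf1 (0.97) and Chd8 (0.96), a Ras regulator and a chromatin remodeller. Those most like Neat1 were Tmbim1 (0.89) and Gab1 (0.89), those most like Rian Zfp711 (0.95) and Zdhhc21 (0.90), and those most like Mirg Ptpra (0.84) and Csnk1g1 (0.83). Miat was most like Usp13 (0.88) and Nova2 (0.85), Snhg11 most like Meg3 and Ttc14 (0.88), Meg3 most like Snhg11 and Col11a1 (0.88), and B230216N24Rik most like Ttc13 (0.88) and Prom1 (0.88).

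**Figure D5:**
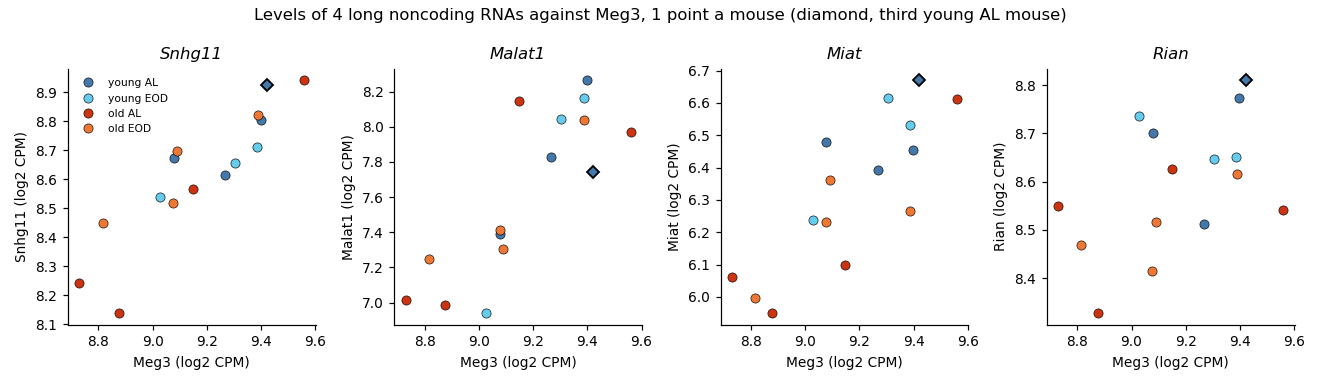
Log2 CPM of Snhg11, Malat1, Miat and Rian against Meg3, 1 point per mouse, coloured by group. Snhg11 follows Meg3 closely within groups, and Rian follows it least.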

How the data were processed

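Whole brain RNA of 15 mice was sequenced as single-end reads by the authors, who trimmed the reads and aligned them to GRCm38 with STAR. Per the file headers, reads were counted with featureCounts 1.5.0-p1 on Ensembl release 79 genes, reverse-stranded, as primary alignments with a mapping quality of at least 5. The deposited values are raw counts per gene without normalization. RNA selection was not given in the sources used here. The labels give the old mice as 24 months, and the methods give a younger age at the start of phenotyping. Samples were grouped by the labels.

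Everything else was computed here. Totals were scaled by TMM, and genes passing filterByExpr were tested with edgeR 4.0.16 (quasi-likelihood, 4 group means, Benjamini-Hochberg, FDR below 0.1; R 4.3.3). DESeq2 1.42.0 and limma 3.58.1 (voom with sample weights) were alternatives. Scripts were tested on simulated data. All 8 RNAs matched by symbol, and 42462 of 43629 identifiers had a symbol. Sequences are from GENCODE M21 transcripts and RefSeq. The 8 RNAs and the gene lists were chosen with earlier results of these data known. Beside the 8 RNAs, genes named are the nearest tested neighbours and overlapping genes, the most alike by Pearson's r of log2 CPM (prior count 2) over 14 mice, and each list's gene with the smallest p for age averaged over diets, its gene with the highest level per length and its called genes, except that 1 list is not reported here. No replicate pair differed by less than sampling noise (chi-square per degree of freedom of at least 3.01 over 21 pairs). Alternatives tried were other scalings, filters and tools, a stricter FDR, a replicate block, a lane term and leaving out each mouse.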

Additional observations from a re-analysis of the deposited data

Results flagged for a closer look

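With 8 RNAs and 3 groups of 4 mice, 24 sets of values were examined for a mouse far from the others, of which chance flags about 1 in 20. B230216N24Rik in the third young AL mouse, at 19.9 CPM, had a gap to the next mouse of 0.853 of the group's whole range. Malat1 in the third old EOD mouse, at 262 CPM, had a gap of 0.836 of the range.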

How the results depend on the processing

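Neat1's rise in AL mice (0.76 to 1.11 on the log2 scale) and averaged over diets (0.48 to 0.68) was called in all 25 fits. The counts of the 8 RNAs called that follow include B230216N24Rik, which was chosen through the AL mice, and say nothing of its stability. In AL mice the count was 2, and 1 under limma, the replicate block, an FDR of 0.05 and DESeq2 without the third young AL mouse, the last chosen after the data were seen. Leaving out each mouse gave 1 to 4 in AL mice, 2 to 3 averaged over diets and 0 elsewhere. With every gene that had a count, 5 RNAs were called averaged over diets, and 1 (Neat1) for the interaction. That setting called 444, 100, 653, 26, 27, 65 and 26 genes, in the order age (AL, EOD, averaged), diet (young, old, averaged) and interaction. For age in EOD mice, DESeq2 called 72 genes, limma 125 and DESeq2 without the third young AL mouse 97. For age averaged over diets, the lane term gave 237 and an FDR of 0.05 gave 229. DESeq2 called 1 gene for diet in young mice, and limma, the lane term and DESeq2 without that mouse called 2 each for diet in old mice. Leaving out each mouse gave 102 to 221 genes in AL mice, 19 to 72 in EOD mice, 216 to 425 averaged and 0 for diet and interaction. The causes of these shifts were not tested.

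Of 21 pairs of mice with the same replicate number, 2 had a correlation of deviations over 0.1 (range -0.113 to 0.113). This measure cannot exclude a shared origin, since mice of the same number also differed in age or diet. Lane partly followed the number, with all mice numbered 1 in lane 1 and all numbered 4 in lane 3. The replicate block called 155, 35 and 250 genes for age (AL, EOD, averaged), and it changed no call of the other 7 RNAs.

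Differences near 0 that were not called changed sign. Under limma, Neat1 for diet averaged was -0.048, Meg3 for diet in young mice 0.000489 and interaction -0.0666, Rian 0.00986 and -0.024 for the same, Miat 0.0367 (diet, young), -0.0516 (diet, old) and -0.0883 (interaction), and Snhg11 for diet averaged 0.0122. Under DESeq2 without the third young AL mouse, Neat1 for diet averaged was -0.066, Rian 0.00869 (diet, young) and -0.0212 (interaction), Miat 0.0237 (diet, young), 0.0187 (diet, averaged) and -0.0101 (interaction), Snhg11 for diet averaged 0.0273 and B230216N24Rik for the interaction -0.0625. Under the block, Malat1 was 0.00171 for diet in old mice and 0.14 for the interaction, Meg3 0.00938 for diet in old mice, Mirg -0.00613 for diet averaged and Snhg11 0.0478 for age in EOD mice. With a lane term, Malat1 was 0.0342 for diet in young mice, Meg3 0.0206 for diet in old mice and Snhg11 0.0672 for age in EOD mice, and with at least 10 counts in every mouse Mirg was -0.000581 for diet averaged.

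Leaving out each mouse moved diet averaged over ages from -0.0635 to 0.119 for Neat1, -0.167 to 0.089 for Malat1, -0.0828 to 0.0642 for Meg3, -0.05 to 0.00147 for Rian, -0.135 to 0.107 for Mirg, -0.0507 to 0.0729 for Miat and -0.0515 to 0.0896 for Snhg11. Diet in young mice ran from -0.237 to 0.267 for Malat1, -0.124 to 0.0485 for Meg3, -0.0834 to 0.0152 for Rian, -0.164 to 0.321 for Mirg and -0.116 to 0.0718 for Miat. Diet in old mice ran from -0.306 to 0.137 for Malat1, -0.117 to 0.179 for Meg3, -0.0673 to 0.0278 for Rian, -0.219 to 0.055 for Mirg and -0.0563 to 0.179 for Miat. The interaction ran from -0.356 to 0.166 for Malat1, -0.0691 to 0.23 for Meg3, -0.0423 to 0.0667 for Rian, -0.429 to 0.0564 for Mirg, -0.0574 to 0.213 for Miat and -0.0727 to 0.501 for B230216N24Rik. Age in AL mice ran from -0.211 to 0.0562 for Mirg, and age in EOD mice from -0.477 to 0.00766 for Mirg and -0.0759 to 0.0481 for Snhg11. With 3 or 4 mice a group and 21 to 75 reads for Mirg, small differences were not detectable.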
